A study of Mus musculus with 2 samples.

Results

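Matricellular proteins are secreted into the extracellular matrix, where they bind collagens, growth factors and cell-surface integrins and change how cells respond to the matrix, without being among its main load-bearing fibres. The 10 genes of this kind described here in the regenerating mouse digit tip are Postn, Tnc, Tnn, Cthrc1, Fn1, Sparc, Ctgf, Cyr61, Wisp1 and Wisp2. They were chosen by name, 10 of the 28001 features in the count matrices. The rule used no measured value, but the choice was made with earlier results of these data known. All 10 matched an identifier of the mouse annotation GENCODE vM21 of the build mm10.

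The digit tip of the mouse regrows after amputation from a blastema, a mound of proliferating mesenchymal cells under the wound epidermis that later forms bone, nail-associated mesenchyme and connective tissue. The study compared a line whose Cre marks cells that express Lmx1b, a gene of dorsal limb and nail-associated mesenchyme, with a line whose Cre marks cells that express Pdgfra, a receptor gene of most fibroblast-like cells. The first library came from Lmx1bCreERT2;R26-LSL-TdT mice and the second from PdgfraCreERT;R26-LSL-TdT mice. In both, tamoxifen lets Cre remove a stop cassette at the Rosa26 locus, so that tdTomato marks cells that used the driver gene at that time and their descendants. Mice of both lines were adults of 10 to 12 weeks, were given tamoxifen at 3 mg daily over 4 days, lost the digit tip 10 days later, and gave regenerating tissue at 14 days after amputation. No sort on tdTomato was described, unamputated digits were not analysed here, and the number of mice behind a library was not given in the sources used here.

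Each line had 1 library, so line, animal and library cannot be told apart, no test between groups was possible, and every interval below covers counting error only. After filters, 2744 cells (median 17084 unique molecular identifiers, UMIs) remained of the Lmx1b library and 2309 cells (median 9774 UMIs) of the Pdgfra library. A total of 10 barcodes occurred in both libraries, 1 of them among kept cells. Cells were clustered without the 10 genes and named from marker genes into 13 classes. Mesenchymal cells, with the bone lineage, numbered 954 (34.8% of the Lmx1b library) and 552 (23.9% of the Pdgfra library), with median depths of 25666.5 and 25549.5 UMIs, and all 8 mesenchymal markers had UMIs in both. A mesenchymal cluster led by the vascular genes Rgs5, Flt1 and Pecam1, with 12 cells of the Lmx1b library (0.437%) and 32 cells of the Pdgfra library (1.39%), was set aside after its genes were seen. The remaining 10 mesenchymal clusters are called by their 2 leading genes. Levels, written CPM, are UMIs of a gene per 1000000 UMIs, both summed over the cells of a group.

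Periostin (Postn) holds collagen fibrils together with fibronectin and tenascin-C, and tenascin-C (Tnc) and tenascin-W (Tnn) are large anti-adhesive glycoproteins of embryonic, healing and bone-forming tissue. Cthrc1 is a secreted protein of activated fibroblasts, fibronectin (Fn1) forms fibrils that cells assemble through integrins and on which other matrix proteins are laid down, and Sparc, or osteonectin, chaperones collagen and is abundant in bone. Ctgf (also Ccn2), Cyr61 (Ccn1), Wisp1 (Ccn4) and Wisp2 (Ccn5) belong to the CCN family of modular signalling proteins. Ctgf and Cyr61 are standard target genes of the YAP and TAZ coactivators, which act through TEAD factors, and Wisp1 and Wisp2 were named as Wnt-induced genes. Wisp2 alone of these lacks the carboxy-terminal cysteine knot domain.

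The genes lie on 7 chromosomes of mm10, with Postn at chr3:54361109-54391037, Cyr61 at chr3:145646976-145649981, Tnc at chr4:63959785-64047015, Tnn at chr1:160085029-160153580, Fn1 at chr1:71585520-71653200, Sparc at chr11:55394500-55423183, Ctgf at chr10:24595442-24598683, Cthrc1 at chr15:39076932-39087121, Wisp1 at chr15:66891320-66923201 and Wisp2 at chr2:163820861-163833146. RefSeq promoter sequences (build GRCm38.p6) were at hand for 5 of the 10, namely Postn, Tnc, Tnn, Sparc and Cyr61. The 250 bases before each annotated start were searched on both strands for the TEAD core GGAATG, for the AP-1 site TGANTCA and for the CArG box. No matches overlapped, since no window of a member held more than 1. The TEAD core occurred in 12.6% of 32851 mouse promoter windows of that length, the AP-1 site in 6.75% and the CArG box in 1.47%. Postn, Tnc and Tnn are shown because their levels went together from cell to cell (below), and Cyr61 because it did not follow them. Postn and Tnn also went with Cthrc1 and Fn1, for which no promoter sequence was at hand. Each sequence runs 5′ to 3′ up to the outermost annotated start of its gene, which leaves 133 of the 250 bases for Tnn. The Postn window lies before the outermost of its 2 RefSeq starts, upstream of the start given by the mm10 position above. Capitals mark the TEAD core, GGAATG or its reverse complement CATTCC.
Postn promoter, chr3:54359017-54359266, plus strand: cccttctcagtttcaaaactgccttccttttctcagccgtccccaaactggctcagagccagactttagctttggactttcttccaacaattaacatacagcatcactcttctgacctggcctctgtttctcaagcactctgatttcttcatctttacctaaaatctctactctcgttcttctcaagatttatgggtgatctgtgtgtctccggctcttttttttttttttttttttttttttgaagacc
Tnc promoter, chr4:64047016-64047265, minus strand: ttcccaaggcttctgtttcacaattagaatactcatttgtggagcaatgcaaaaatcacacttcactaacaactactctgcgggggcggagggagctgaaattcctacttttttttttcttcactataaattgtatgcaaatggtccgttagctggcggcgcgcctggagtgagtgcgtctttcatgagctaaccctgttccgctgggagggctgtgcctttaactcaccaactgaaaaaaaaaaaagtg
Tnn promoter, chr1:160153693-160153825, minus strand: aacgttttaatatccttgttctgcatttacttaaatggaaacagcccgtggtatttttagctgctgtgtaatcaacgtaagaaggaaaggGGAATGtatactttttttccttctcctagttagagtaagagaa
Cyr61 promoter, chr3:145649986-145650235, minus strand: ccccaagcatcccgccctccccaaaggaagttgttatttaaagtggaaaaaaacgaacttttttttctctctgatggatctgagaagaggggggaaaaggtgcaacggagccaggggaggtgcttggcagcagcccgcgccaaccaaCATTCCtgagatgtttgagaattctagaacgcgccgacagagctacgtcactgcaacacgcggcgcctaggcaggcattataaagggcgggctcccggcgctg
The TEAD core was present once in the window of Tnn and once in that of Cyr61. None of the 3 motifs was found in the windows of Postn, Tnc and Sparc. A match is a stretch of letters in this window and says nothing of binding.

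The first question was which cells of the digit tip carried these transcripts. In both libraries 7 of the 10 genes were at least 2-fold higher in mesenchymal cells than in all other named cells together: Postn, Tnc, Tnn, Cthrc1, Fn1, Wisp1 and Wisp2. As background, 6.68% of the 10576 features measured well enough in the Lmx1b library were 2-fold higher in mesenchyme, as were 6.67% of 10613 in the Pdgfra library, where well enough means a mean of the 2 sides of at least 5 CPM. The median log2 difference of the 10 genes was 1.96 in the Lmx1b library and 1.75 for the Pdgfra library, beside -0.17 over all such features in either library. Sparc, Ctgf and Cyr61 stayed under 2-fold. Among named classes of at least 20 cells, 6 of the 10 genes had their highest level in mesenchymal cells in both libraries, while Fn1, Sparc, Ctgf and Cyr61 had it in cartilage or in the vessel wall.

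**Figure D1:**
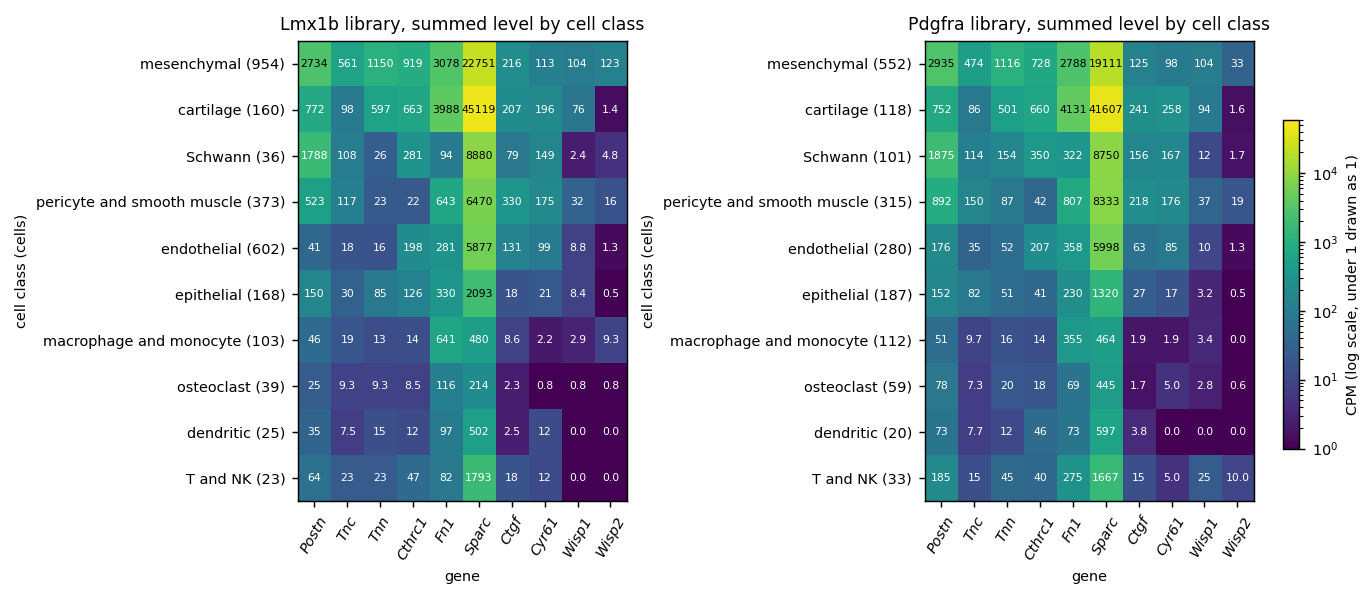
Level of each gene (columns) in each cell class with at least 20 cells in both libraries (rows, with the number of cells; the haemoglobin-led clusters are left out), as CPM of summed UMIs printed in each square and coloured on a log scale, Lmx1b library on the left and Pdgfra library on the right. Postn, Tnc, Tnn, Cthrc1, Wisp1 and Wisp2 are brightest in the mesenchymal row, and Fn1 and Sparc in the cartilage row.

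Postn stood at 2734 CPM (95% interval 2715 to 2754) in mesenchymal cells of the Lmx1b library and 2935 CPM (95% interval 2909 to 2962) in those of the Pdgfra library, against 329 and 517 CPM in all other named cells. That was 8.31-fold (95% interval 8.14 to 8.49) and 5.68-fold (95% interval 5.56 to 5.80) higher. Schwann cells, the glia of peripheral nerves, came second in both libraries, with 1788 CPM from 36 cells in the Lmx1b library and 1875 CPM from 101 cells in the Pdgfra library. Pericytes and smooth muscle cells had 523 CPM in the Lmx1b library and 892 CPM in the Pdgfra library. Postn was thus high in nerve sheath and vessel wall as well as in mesenchyme, and macrophages, which should lack it, had 45.9 CPM in the Lmx1b library and 51.2 CPM in the Pdgfra library.

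Tnc and Tnn were both higher in mesenchyme by a ratio like that of Postn, but differed in where else they appeared. Tnc measured 561 CPM in mesenchymal cells of the Lmx1b library and 474 CPM in those of the Pdgfra library, against 57.5 and 71.7 CPM in the other named cells, 9.74-fold (95% interval 9.27 to 10.2) and 6.61-fold (95% interval 6.24 to 6.99) higher. Apart from the haemoglobin-led clusters (below), its next levels were those of pericytes and smooth muscle, Schwann cells and cartilage, all between 86.3 and 150.2 CPM over both libraries. Tnn measured 1150.3 and 1116 CPM in mesenchymal cells, against 148 and 150.0 CPM in the other named cells, 7.80-fold (95% interval 7.55 to 8.05) and 7.44-fold (95% interval 7.16 to 7.74) higher. Cartilage came second for Tnn, with 597 CPM in the Lmx1b library and 501 CPM in the Pdgfra library, while pericytes and smooth muscle had 22.7 and 87.3 CPM. Among these non-mesenchymal classes Tnc thus stood highest in the vessel wall and Tnn in cartilage. In the Lmx1b library, though, the Tnc intervals of the vessel wall (117 CPM) and of Schwann cells (108 CPM from 45 UMIs) overlapped.

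Cthrc1 was 919 CPM in mesenchymal cells of the Lmx1b library and 728 CPM in those of the Pdgfra library, and was 4.01-fold (95% interval 3.91 to 4.12) and 3.27-fold (95% interval 3.16 to 3.38) higher there than in other named cells. Cartilage followed closely, with 663 CPM in the Lmx1b library and 659.5 CPM in the Pdgfra library. Endothelial cells carried 198 CPM in the Lmx1b library and 207 CPM in the Pdgfra library, with a UMI in 76.9% and 72.1% of cells at median depths of 12543 and 11656 UMIs. Macrophages, deeper at 26959 and 19902.5 UMIs, had a Cthrc1 UMI in 29 of 103 and 28 of 112 cells and a level of 14.3 and 14.0 CPM. Within endothelium the level was highest in the cluster led by Cldn5 and Gja4, genes of arterial endothelium, at 297 CPM from 48 cells in the Lmx1b library and 350.3 CPM from 28 cells in the Pdgfra library. Endothelial Cthrc1 was thus well above the level in macrophages, in both libraries.

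Fn1 and Sparc were lower in mesenchyme than in cartilage, but above every other named class. Against all other named cells together mesenchyme was 2.63-fold (95% interval 2.59 to 2.66) and 2.46-fold (95% interval 2.42 to 2.50) higher for Fn1, and 1.72-fold and 1.62-fold for Sparc. Fn1 measured 3078 CPM in mesenchyme against 3988 CPM in cartilage of the Lmx1b library, and 2788 against 4131 CPM in the Pdgfra library. Sparc measured 22751 CPM in mesenchyme against 45119 CPM in cartilage of the Lmx1b library, and 19111 against 41607 CPM in the Pdgfra library. Of the 10 genes Fn1 had the highest level in macrophages relative to mesenchyme, at 641 and 355 CPM, or 20.8% and 12.7% of the mesenchymal level. For Postn, Tnc, Tnn, Cthrc1, Sparc, Cyr61 and Wisp1 that share was between 1.15% and 3.33% over both libraries. Sparc had a UMI in at least 93.9% of the cells of every class in the class plot, 100% and 97.3% of macrophages included, so the share of cells with a UMI told nothing about which cells express it.

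The 2 clusters named erythroid were matched by haemoglobin genes, were shallow at median depths of 1362 and 1525 UMIs, and had genes of other classes among their 10 leading genes. The first, with 87 cells of the Lmx1b library and 229 of the Pdgfra library, also led with the endothelial genes Icam2, Ecscr and Gpihbp1. It had 273 and 347 CPM of Postn and 6634 and 6649 CPM of Sparc. The second, with 72 and 150 cells, also led with Prrx2, a homeobox gene of limb mesenchyme, and had 1263 and 1697 CPM of Postn and 22796 and 14340.4 CPM of Sparc. Their levels are therefore read neither as those of red cells nor as background. Without these clusters the counts of genes 2-fold higher in mesenchyme and of genes highest there were still 7 and 6 in each library. Depth also moved with Postn inside the endothelium. In the Pdgfra library the dividing endothelial cluster led by Cenpf and Ube2c, with a median of 4342 UMIs over 40 cells, had 643 CPM of Postn. The same cluster of the Lmx1b library, with a median of 17705 UMIs over 67 cells, had 32.9 CPM.

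The CCN genes fell into 3 patterns over the classes. Ctgf and Cyr61 were spread over the vessel wall, cartilage, Schwann cells and mesenchyme, Wisp1 was a gene of mesenchyme and cartilage, and Wisp2 was low outside mesenchyme. Ctgf measured 216 CPM in mesenchymal cells of the Lmx1b library and 125 CPM in those of the Pdgfra library, only 1.37-fold and 1.09-fold the level of the other named cells. Its highest class was pericytes and smooth muscle in the Lmx1b library, at 330.1 CPM, with 218 CPM in the Pdgfra library. Cartilage had 207 CPM in the Lmx1b library and 241 CPM in the Pdgfra library. Schwann cells had 79.2 CPM in the Lmx1b library and 156 CPM in the Pdgfra library. A small cartilage cluster led by Lect1 and Matn1, with 2 cells of the Lmx1b library and 47 of the Pdgfra library, where it had a median of 3511 UMIs, stood at 806 CPM of Ctgf and 757 CPM of Cyr61. Without it, cartilage of the Pdgfra library had 216 CPM of Ctgf, so that its lead over the vessel wall rested on those cells.

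Cyr61 was the member least tied to mesenchyme, with 113 CPM in mesenchymal cells against 114 CPM in other named cells of the Lmx1b library, and 97.8 against 114 CPM in the Pdgfra library. The ratio was 0.994-fold (95% interval 0.947 to 1.04) and 0.858-fold (95% interval 0.804 to 0.916). Cartilage was highest, with 196 and 258 CPM, then pericytes and smooth muscle with 175 and 176 CPM, though in the Lmx1b library the intervals of these 2 classes overlapped. Schwann cells had 149 and 167 CPM, above mesenchyme as well, with an interval that overlapped that of mesenchyme in the Lmx1b library. Within the vessel wall Ctgf and Cyr61 had different high points. The contractile cluster led by Actg2 and Tagln had 386 and 295 CPM of Ctgf and 179 and 150.0 CPM of Cyr61. The cluster led by the inflammatory genes Il6 and Cxcl1 had 141 and 117 CPM of Ctgf and 289 and 285 CPM of Cyr61. Endothelium repeated the split, since its Cldn5/Gja4 cluster was highest in Cyr61, at 182 and 189 CPM, and lowest or second lowest in Ctgf, at 37.9 and 63.7 CPM.

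Wisp1 measured 104 and 104 CPM in mesenchymal cells and 75.5 and 93.9 CPM in cartilage, with overlapping intervals in the Pdgfra library, and was at most 36.8 CPM in the vessel wall. Wisp2 measured 123 CPM (95% interval 119 to 127) in mesenchymal cells of the Lmx1b library and 32.8 CPM (95% interval 30.1 to 35.7) in those of the Pdgfra library. The other named cells had 5.12 and 4.75 CPM, so mesenchyme was 24.1-fold (95% interval 20.4 to 28.5) and 6.91-fold (95% interval 5.55 to 8.69) higher. Pericytes and smooth muscle had 16.2 and 18.8 CPM, and endothelium, cartilage and epithelium had at most 1.57 CPM. Macrophages had 9.32 CPM in the Lmx1b library, or 7.57% of the mesenchymal level, from 26 UMIs in only 5 of 103 cells. In macrophages of the Pdgfra library Wisp2 had 0 UMIs, which allows up to 1.45 CPM at 3 counts.

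Inside the mesenchyme the 10 genes divided the clusters between them. The clusters can be read by genes not among the 10. Thbs4/Angptl1, Mest/Nell2 and Lgr5/Eln are fibroblast-like, and Top2a/Cenpf holds dividing cells. C1qtnf3/Adamts18, which also led with Ifitm5, Gal/Dmp1, which also led with Phex, and Bglap/Bglap2 carry genes of osteoblasts and osteocytes. Gal/Dmp1 had the cartilage genes Chad and Col2a1 among its 10 leading genes as well. Angpt2/Fmo2 also led with Sparcl1 and Cxcl12, A2m/Mmp13 also led with Sfrp4, and Cyp2f2/Sfrp2 was the cluster matched by nail-associated markers. Because clusters were built from the same cells, levels across them are a description. Over clusters with at least 20 cells in both libraries, 7 of the 10 genes were highest in the same cluster in both libraries.

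**Figure D2:**
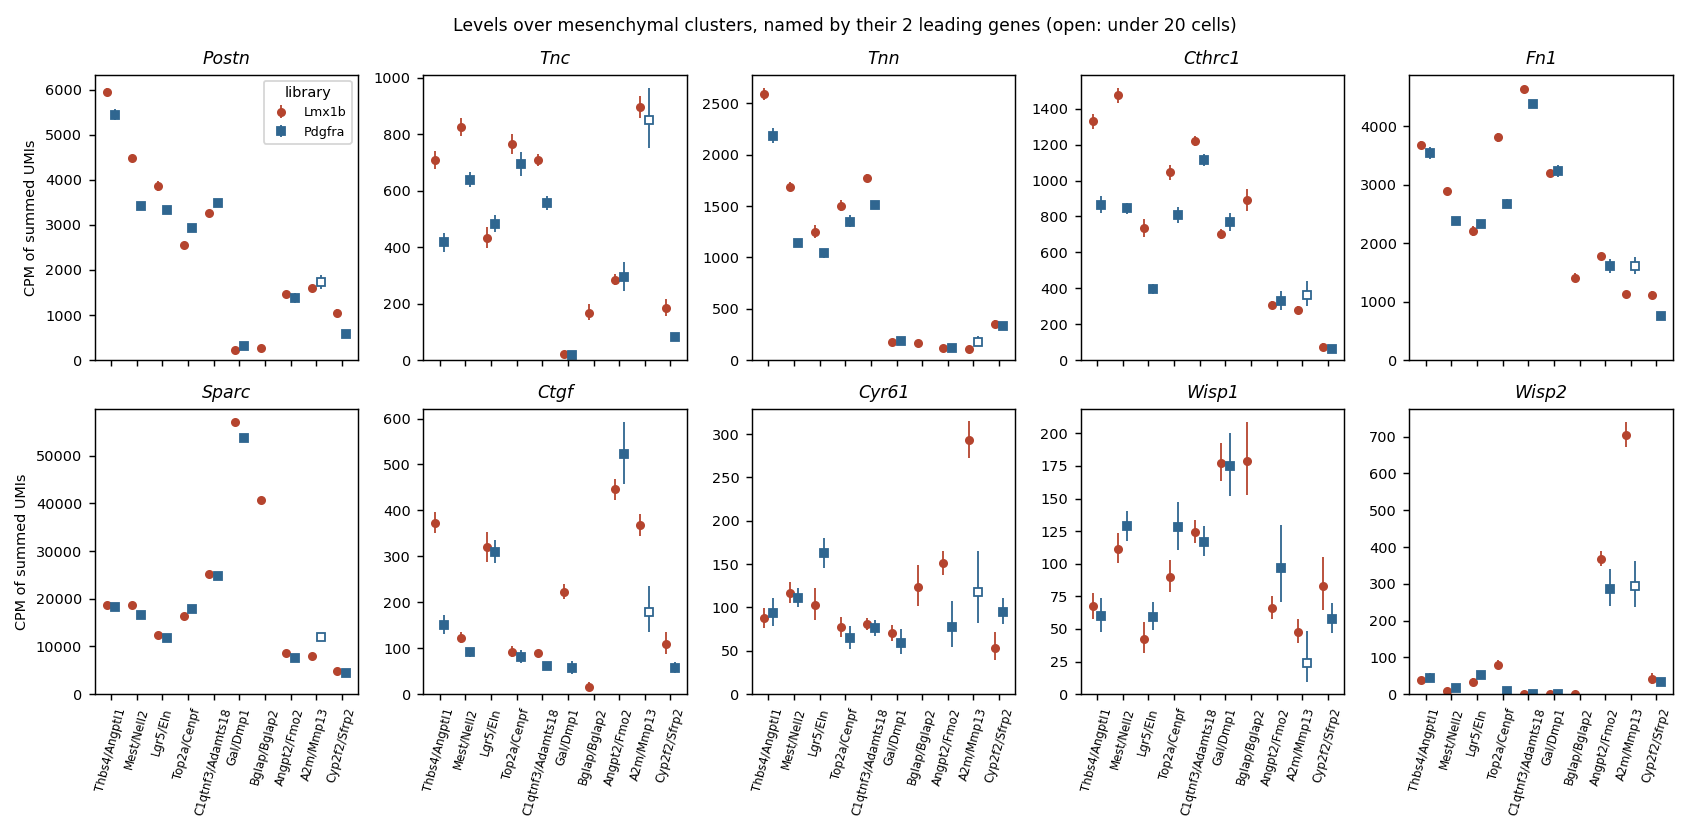
Level of each gene (1 panel each, CPM of summed UMIs on a linear axis from 0) in 10 mesenchymal clusters of the Lmx1b library (circles) and the Pdgfra library (squares), with 95% Poisson intervals of counting error and open symbols for fewer than 20 cells. Postn and Tnn peak in Thbs4/Angptl1, Sparc in Gal/Dmp1, and Wisp2 in Angpt2/Fmo2 and A2m/Mmp13.

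Postn was highest in a fibroblast-like cluster and lowest in a bone cluster, while another cluster with bone genes, C1qtnf3/Adamts18, was among the high ones. Thbs4/Angptl1 had 5952 CPM in the Lmx1b library and 5449.9 CPM in the Pdgfra library, and Gal/Dmp1 had 228 CPM in the Lmx1b library and 318 CPM in the Pdgfra library, a span of more than an order of magnitude inside the mesenchymal class. Mest/Nell2, Lgr5/Eln, C1qtnf3/Adamts18 and Top2a/Cenpf lay between 2565 and 4488 CPM over both libraries. Bglap/Bglap2 of the Lmx1b library had 274 CPM, but 1 cell held 113 of its 246 Postn UMIs. Without that cell it had 167 CPM, less than Gal/Dmp1. Cyp2f2/Sfrp2, the nail-marker cluster, was low at 1050.3 and 587 CPM.

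Tnn followed the same lead, with 2592 CPM in the Lmx1b library and 2186 CPM in the Pdgfra library for Thbs4/Angptl1. It then parted the clusters into a high set, from 1042 to 2592 CPM, and a low set, from 111 to 348 CPM, with no cluster between. The low set was Gal/Dmp1, Bglap/Bglap2, Angpt2/Fmo2, A2m/Mmp13 and Cyp2f2/Sfrp2. Tnc kept to no such division. Its highest level in the Lmx1b library was in A2m/Mmp13, at 895 CPM (95% interval 858 to 934), where Tnn was among its lowest with 111 CPM. In Bglap/Bglap2 1 cell held 121 of the 152 Tnn UMIs, and without it the level there was 38.8 CPM. In Angpt2/Fmo2 of the Pdgfra library 1 cell held 39 of 56 Tnn UMIs, with 38.6 CPM without it. In the Pdgfra library A2m/Mmp13 held only 14 cells, with 852 CPM of Tnc and 179 CPM of Tnn, the same contrast. The lowest Tnc was in Gal/Dmp1, at 21.0 and 17.7 CPM.

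Cthrc1 was shared by fibroblast-like and bone clusters and was low in the nail-marker cluster. In the Lmx1b library it was highest in Mest/Nell2, at 1475 CPM, and in the Pdgfra library in C1qtnf3/Adamts18, at 1114 CPM, with 1219.8 CPM for that cluster in the Lmx1b library. Cyp2f2/Sfrp2 had 73.2 CPM in the Lmx1b library and 59.6 CPM in the Pdgfra library. The bone cluster Gal/Dmp1, where Tnc was lowest and Postn low, still had 702 and 767 CPM.

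Fn1 varied least over the clusters of the 6 genes from Postn to Sparc. Its highest cluster was C1qtnf3/Adamts18, with 4629.8 CPM in the Lmx1b library and 4377 CPM in the Pdgfra library, and its lowest Cyp2f2/Sfrp2, with 1108 CPM in the Lmx1b library and 749 CPM in the Pdgfra library. Sparc was highest in the bone clusters. Gal/Dmp1 had 56997 CPM in the Lmx1b library and 53631 CPM in the Pdgfra library, Bglap/Bglap2 had 40768 CPM in the Lmx1b library, which alone held that cluster, and C1qtnf3/Adamts18 had 25207 and 24785 CPM. Cyp2f2/Sfrp2 was lowest at 4942 and 4461 CPM. In Gal/Dmp1 the collagen chaperone was thus at its peak where Tnc was at its lowest and Postn was low.

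Among the CCN genes, Wisp2 was the most selective. It measured 705 CPM (95% interval 672 to 739) in A2m/Mmp13 and 369 CPM (95% interval 348 to 390.3) in Angpt2/Fmo2 of the Lmx1b library, and 287 CPM (95% interval 240.3 to 340.2) in the 23 cells of Angpt2/Fmo2 in the Pdgfra library. The bone clusters had 1.20 CPM in Gal/Dmp1 and 1.09 CPM in C1qtnf3/Adamts18 of the Lmx1b library, with 0 and 1.44 CPM in the Pdgfra library. A Wisp2 UMI was present in 74.5% of A2m/Mmp13 cells and 3.16% of C1qtnf3/Adamts18 cells of the Lmx1b library, at median depths of 19686.5 and 34381 UMIs. The deeper cells were therefore the ones with less Wisp2. Wisp1 ran the other way, highest in the bone clusters Gal/Dmp1, at 177 and 175 CPM, and Bglap/Bglap2, at 179 CPM, and at 47.7 CPM in A2m/Mmp13 of the Lmx1b library.

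Ctgf was highest in Angpt2/Fmo2 in both libraries by summed UMIs, with 446 CPM in the Lmx1b library and 522 CPM in the Pdgfra library. Of the 242 Ctgf UMIs of that cluster in the Pdgfra library 1 cell held 202, 7 of the 23 cells had any, and without that cell the level was 92.2 CPM. Lgr5/Eln of the Pdgfra library, at 309.9 CPM with a UMI in 54 of 76 cells, would then be highest, and Ctgf would not be among the 7 genes highest in the same cluster of both libraries. Thbs4/Angptl1, A2m/Mmp13 and Lgr5/Eln followed in the Lmx1b library, at 374, 367 and 319.8 CPM, with intervals that all overlapped. Without the 1 cell with most Ctgf in each, they had 302, 344 and 236 CPM, and Angpt2/Fmo2 had 419 CPM. Bglap/Bglap2 was lowest at 15.6 CPM. Cyr61 was highest in A2m/Mmp13 of the Lmx1b library, at 293 CPM, and in Lgr5/Eln of the Pdgfra library, at 162 CPM. Cyr61 responds to tissue dissociation as well as to tension, and the summed level of 15 immediate early genes was also unequal. It was 6947 CPM in A2m/Mmp13 and 5549 CPM in Angpt2/Fmo2 of the Lmx1b library, against 1360.2 CPM in C1qtnf3/Adamts18. In the Pdgfra library it was 5240.1 CPM in Lgr5/Eln but 8188 CPM in Cyp2f2/Sfrp2, where Cyr61 was 94.9 CPM. The part of dissociation in the Ctgf and Cyr61 levels was not tested.

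Detection, and the gathering of UMIs in few cells, were also compared over the mesenchyme. After each cell was thinned to 5000 UMIs, which left 891 cells of the Lmx1b library and 499 of the Pdgfra library, Sparc had a UMI in 100% of cells in both and Postn in 85.4% and 93.0%. Wisp2 had one in 16.9% and 10.2%, Ctgf in 33.9% and 26.3%, Cyr61 in 30.1% and 29.5%, and Wisp1 in 32.0% and 32.1%. The 10% of cells with most Ctgf held 68.2% of its UMIs in the Lmx1b library and 70.9% for the Pdgfra library. For Wisp1 that share was 52.6% and 54.5%. The 6 matrix genes from Postn to Sparc had between 26.8% and 38.3% of their UMIs in their top 10% of cells. This share also rises where a gene has few UMIs per cell. In the Lmx1b library the mean per thinned cell ran from 0.476 UMIs for Wisp1 to 103 for Sparc. The CCN and the matrix genes can therefore not be compared by it. In the Lmx1b library Ctgf and Wisp1 had a UMI in a like share of cells, but means of 1.17 and 0.476 UMIs per thinned cell. Their top shares therefore do not show whether Ctgf was held by fewer cells.

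Across the same thinned cells, Spearman's rho between Postn and Tnn was 0.71 in the Lmx1b library and 0.59 for the Pdgfra library, the highest of the 45 pairs in each. Postn and Tnc had 0.51 and 0.47, and Tnc and Tnn 0.47 and 0.45. Sparc went with Cthrc1, at 0.42 and 0.56, and with Fn1, at 0.43 and 0.53. It had little relation to Postn in the Lmx1b library, at 0.08, and 0.32 in the Pdgfra library. Ctgf and Cyr61, both YAP target genes by repute, had 0.21 and 0.14, values too weak to read in counts this sparse. Wisp2 was lower where Sparc was higher in the Lmx1b library, at -0.41. In the Pdgfra library, where 10.2% of thinned cells had a Wisp2 UMI, the value of -0.16 was likewise too weak to read. Cells of 1 library share depth, free RNA and cluster membership, so these values are a description.

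**Figure D3:**
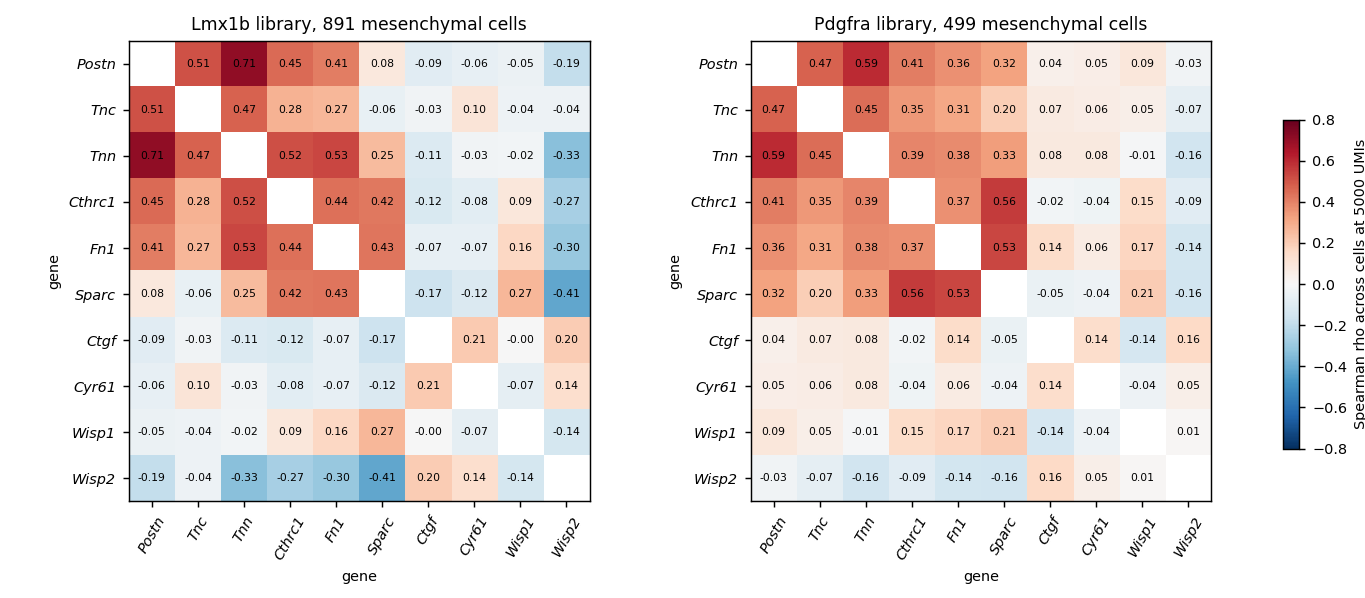
Spearman's rho between the levels of each pair of genes across mesenchymal cells thinned to 5000 UMIs, Lmx1b library on the left (891 cells) and Pdgfra library on the right (499 cells). Postn and Tnn have the highest value in both, Sparc goes with Cthrc1 and Fn1, and in the Lmx1b library Wisp2 is below 0 against Sparc.

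The genes whose levels over cell groups most resembled each member were sought over 34 profiles, 18 of the Lmx1b library and 16 of the Pdgfra library (classes and mesenchymal clusters of at least 30 cells), by Pearson's r of log2(CPM + 1) among 10784 genes. Postn was most like Angptl2 (r = 0.96), Col16a1 and Fndc1. Tnc was most like P4ha3 (r = 0.93), which encodes a subunit of collagen prolyl hydroxylase, and like Antxr1 and Asphd2. Tnn was most like Itgbl1 (r = 0.96), then the fibril-associated collagen gene Col12a1 and Fmod, which encodes fibromodulin. Fn1 was most like Thbs1 (r = 0.95), the gene of the matricellular protein thrombospondin, then Srpx and Lox, which encodes the collagen cross-linking enzyme lysyl oxidase. Wisp1 was also most like Lox (r = 0.96), then Fkbp14 and Pcolce. Sparc was most like Tmem263 (r = 0.98), then Copz2 and Fkbp10, the last of which helps fold procollagen.

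Cthrc1 was most like Sorcs2, Sar1a and Tmem263 (r = 0.91 for each). Ctgf was most like Pam (r = 0.92), Nrep and Csgalnact1, and Cyr61 was most like Mtss1l (r = 0.94), Nedd4 and Fermt2, which encodes the integrin activator kindlin. Wisp2 had the least close neighbours, Aldh1a2 (r = 0.88), an enzyme gene of retinoic acid synthesis, Shc1 and Tmem100. Profiles of 1 library share their depth and free RNA, and the clusters were cut from the same cells, so the values only rank the genes.

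Genes that work with the 10 were read from lists chosen with earlier results of these data known. All 13 matrix partners, among them Col1a1, Col3a1, Dcn and Vcan, were at least 2-fold higher in mesenchyme than in other cells in both libraries, with median log2 differences of 1.73 and 1.71. Over all features 6.68% were higher and 12.9% lower in the Lmx1b library, and 6.67% higher and 12.2% lower in the Pdgfra library. Col12a1 was 4.31-fold and 4.88-fold higher and Bmp1, a protease that periostin is known to bind, 3.32-fold and 2.88-fold. Of other matricellular genes, 8 of 18 tested were 2-fold higher and 2 lower in the Lmx1b library, and 10 of 19 higher and 2 lower in the Pdgfra library. Thbs2 was 6.58-fold and 5.94-fold higher and Smoc2 8.01-fold and 8.22-fold. Sparcl1, the nearest relative of Sparc, went the other way, with 129 CPM in mesenchymal against 1088 CPM in other cells of the Lmx1b library, and 38.4 against 522 CPM in the Pdgfra library. Nov (Ccn3), another CCN gene, was 0.290-fold in mesenchyme of the Lmx1b library and 3.38-fold in that of the Pdgfra library, a change of side between the libraries.

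The receptors of these proteins went both ways, each with a larger share than over all features (above). Of 20 tested in the Lmx1b library 6 were 2-fold higher and 6 lower there, and of 21 in the Pdgfra library 5 were higher and 7 lower. Itgb1, the integrin chain shared by most matrix receptors, was 500.0 CPM in mesenchymal against 585 CPM in other cells of the Lmx1b library. Itgb5 was 2.84-fold and 2.49-fold higher in mesenchyme, and Lrp1, an endocytic receptor that binds Ctgf, 3.86-fold and 2.58-fold. Of 15 YAP-TEAD and TGF-beta response genes other than the members, 0 were 2-fold higher and 6 lower in mesenchyme in each library, where 12.9% of features in the Lmx1b library and 12.2% of those in the Pdgfra library were lower. Among the lower were Acta2 and Tagln, the contractile genes of smooth muscle, at 0.184-fold and 0.0814-fold the level of other cells in the Lmx1b library and 0.360-fold and 0.317-fold in the Pdgfra library.

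The second comparison set the mesenchyme of the Lmx1b library against that of the Pdgfra library. Of the 10 genes, 1 differed by 2-fold, Wisp2, where 1.72% of 9931 features did. It was 123 CPM in the Lmx1b library and 32.8 CPM in the Pdgfra library, 3.76-fold (95% interval 3.42 to 4.13) higher. Ctgf was 216 and 125 CPM, 1.72-fold (95% interval 1.63 to 1.81), short of the limit. The other 8 lay between 0.932-fold for Postn and 1.26-fold for Cthrc1, with 0.999-fold for Wisp1.

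The makeup of the mesenchyme moved with the Wisp2 difference. A2m/Mmp13 took 11.5% of the mesenchyme of the Lmx1b library against 2.54% in the Pdgfra library, and Angpt2/Fmo2 15.2% against 4.17%. These are the clusters with most Wisp2. Cyp2f2/Sfrp2 made up 4.30% against 20.7%. Within Angpt2/Fmo2, Wisp2 was 1.28-fold, and within A2m/Mmp13, with 110 cells against 14, 2.40-fold, where 17.8% of features differed by 2-fold. It was 8.10-fold in Top2a/Cenpf, with 80.1 against 9.88 CPM from 14 of 54 and 5 of 39 cells with a UMI, where 4.52% of features differed by 2-fold. Wisp2 was lower in the Lmx1b library in Mest/Nell2, with 8.87 against 15.5 CPM, and in Lgr5/Eln, with 32.2 against 50.8 CPM. With the 8 clusters that had at least 20 cells in each library weighted equally, a choice made after the data were seen, the log2 difference of Wisp2 was 0.37 and 0 of the 10 genes differed by 2-fold. A2m/Mmp13 was not among these 8, and it held 1698 of the 3273 mesenchymal Wisp2 UMIs of the Lmx1b library. The part of cluster makeup in the Wisp2 difference was not tested. Inside clusters Ctgf went from 0.853-fold in Angpt2/Fmo2, where 1 cell held most of its UMIs in the Pdgfra library, and 1.03-fold in Lgr5/Eln, up to 3.93-fold in Gal/Dmp1 (223 against 56.6 CPM), with 2.49-fold in Thbs4/Angptl1 (374 against 149.8 CPM), where 4.65% and 3.23% of features differed by 2-fold.

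**Figure D4:**
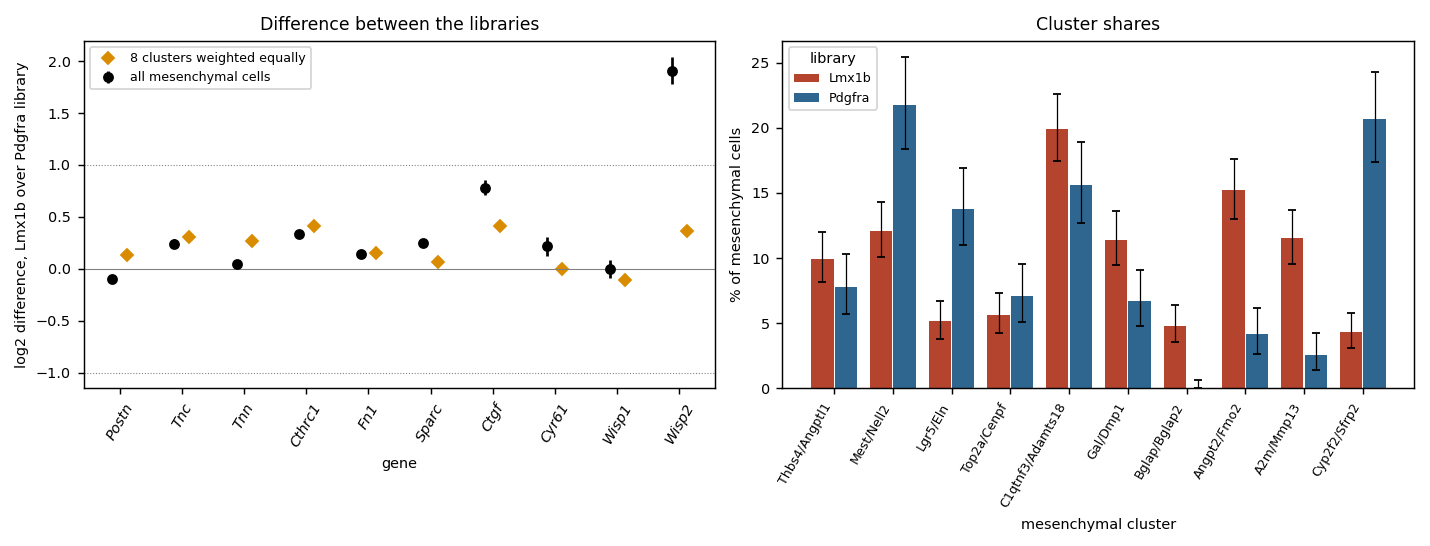
Left, log2 difference of each gene between the mesenchyme of the Lmx1b and of the Pdgfra library, over all cells (circles, with 95% intervals of counting error) and with 8 clusters weighted equally (diamonds), with dotted lines at 2-fold; right, the share of each mesenchymal cluster in the Lmx1b and the Pdgfra library with exact binomial intervals. Wisp2 alone lies beyond the dotted line, and only for all cells, while the 8 clusters do not include A2m/Mmp13.

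Outside the mesenchyme the libraries also differed in places. In endothelial cells 3 of the 10 genes differed by 2-fold, where 1.67% of features did: Postn at 41.1 CPM in the Lmx1b and 176 CPM in the Pdgfra library, Tnn at 16.3 and 52.2 CPM, and Ctgf at 131 and 63.4 CPM. In pericytes and smooth muscle 1 did, where 3.50% of features did: Tnn at 22.7 and 87.3 CPM. The cluster of that class led by Actg2 and Higd1b, with a median of 1665 UMIs, had 410.1 CPM of Tnn in the Pdgfra library. The deeper cluster led by Actg2 and Tagln had 53.3 CPM there. In Schwann cells, with 36 and 101 cells, 3 of the 10 did, where 13.3% of features did: Tnn at 26.4 CPM in the Lmx1b and 154 CPM in the Pdgfra library, Fn1 at 93.6 and 322 CPM, and Wisp1, with 1 UMI in the Lmx1b library, at 2.40 and 11.8 CPM. In cartilage 0 of the 10 genes differed by 2-fold, where 3.49% of features did. The rise of Postn and Tnn was not confined to these classes. Osteoclasts had 24.7 CPM of Postn in the Lmx1b and 77.9 CPM in the Pdgfra library, and 9.26 and 20.2 CPM of Tnn. T and NK cells had 64.2 and 185 CPM of Postn, and 23.4 and 44.9 CPM of Tnn. Dendritic cells had 34.8 and 73.1 CPM of Postn, but 14.9 and 11.5 CPM of Tnn. Macrophages had 45.9 and 51.2 CPM of Postn. The part of free RNA was not tested.

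The third comparison used tdTomato inside each library, with a cell called labelled at 1600 CPM of tdTomato, a limit taken from earlier work on these data. In the Lmx1b library 66 of 954 mesenchymal cells were labelled and 888 were not, and in the Pdgfra library 481 of 552 were labelled and 71 were not. Of the labelled cells of the Lmx1b library, 28 belonged to Cyp2f2/Sfrp2, 16 to Mest/Nell2 and 10 to Lgr5/Eln, and 0 of 95 Thbs4/Angptl1 cells and 0 of 145 Angpt2/Fmo2 cells were labelled (exact 95% limits 3.81% and 2.51%). In the Pdgfra library all 76 Lgr5/Eln cells and 116 of 120 Mest/Nell2 cells were labelled, against 8 of 37 Gal/Dmp1 cells. The limit was also passed by 179 of 379 cells of the haemoglobin-led clusters and 9 of 112 macrophages of the Pdgfra library, and by 6 of 159 and 0 of 103 of the Lmx1b library. Other classes of the Pdgfra library passed it too, with 136 of 315 pericytes and smooth muscle cells, 83 of 280 endothelial cells and 31 of 101 Schwann cells. In the Lmx1b library these were 1 of 373, 0 of 602 and 1 of 36. The share of false labels among mesenchymal cells was not measured.

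In the Lmx1b library 1 of the 10 genes differed by 2-fold between labelled and unlabelled mesenchyme, Wisp2, where 8.56% of 10001 features did. Wisp2 was 34.2 CPM in labelled against 129 CPM in unlabelled cells, 0.266-fold (95% interval 0.198 to 0.350) the unlabelled level. Postn was 2153 against 2769.7 CPM, Tnc 417 against 569 CPM, and Tnn 832 against 1169.7 CPM. Fn1 was 2033 against 3142 CPM and Sparc 16069.5 against 23156 CPM. These 5 lay between 0.647-fold and 0.777-fold, lower but short of 2-fold. The median log2 difference of the 10 genes was -0.41, beside 0.10 over all features. Cthrc1 at 0.949-fold, Ctgf at 1.09-fold and Cyr61 at 0.949-fold had intervals that include 1. Only Lgr5/Eln, Mest/Nell2 and Cyp2f2/Sfrp2 had at least 10 cells on each side. With these clusters weighted equally, the log2 difference of Wisp2 was 0.47, on the other side of 0. That value does not cover A2m/Mmp13 and Angpt2/Fmo2, the clusters with most Wisp2, which had 1 and 0 labelled cells.

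In the Pdgfra library 2 of the 10 differed by 2-fold, where 11.7% of 9752 features did. Sparc was 16819 CPM in labelled against 35609 CPM in unlabelled cells, 0.472-fold (95% interval 0.468 to 0.476) the unlabelled level. Ctgf was 135 and 58.9 CPM, 2.29-fold (95% interval 1.89 to 2.78) higher, and under another scaling, by median of ratios, its log2 difference was 0.96, just short of 2-fold. Postn was 3111 against 1671 CPM, 1.86-fold (95% interval 1.80 to 1.93). Tnn was 1174 against 701 CPM and Tnc 493 against 335 CPM, 1.67-fold and 1.47-fold. The median log2 difference of the 10 genes was 0.60, beside 0.22 over all features. The unlabelled cells held 29 of the 37 Gal/Dmp1 cells, the cluster with most Sparc and least Postn. Only Top2a/Cenpf and C1qtnf3/Adamts18 had at least 10 cells on each side. With these weighted equally, the log2 difference of Sparc was -0.20, that of Ctgf 0.34, and 0 of the 10 genes differed by 2-fold. Those values do not cover Gal/Dmp1, which had 8 labelled cells.

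The label results depended on where the limit was set. With cells called labelled at 1 or more tdTomato UMIs, the log2 difference of Wisp2 in the Lmx1b library was 0.70 and that of Sparc in the Pdgfra library 0.89, both on the other side of 0. With the limit at 800 CPM, Wisp2 in the Pdgfra library was at -1.06 and Tnc at -0.36. With it at 3200 CPM, Tnc was at -0.38, Tnn at -0.08 and Postn at -0.03 in the Pdgfra library. Postn, Tnc and Tnn of the Lmx1b library were below 0 under each of these limits.

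**Figure D5:**
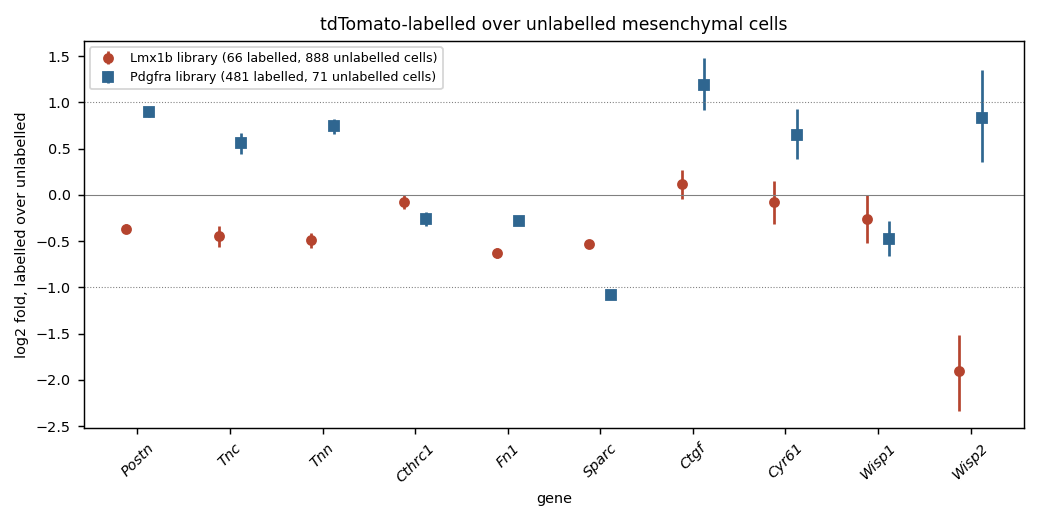
Log2 fold of each gene between tdTomato-labelled and unlabelled mesenchymal cells, in the Lmx1b library (circles, 66 against 888 cells) and the Pdgfra library (squares, 481 against 71 cells), with 95% intervals of counting error and dotted lines at 2-fold. Postn, Tnc, Tnn and Wisp2 lie below 0 in the Lmx1b library and above 0 in the Pdgfra library at this limit of 1600 CPM, while other limits moved some of these genes in the Pdgfra library, and Wisp2 in the Lmx1b library, across 0.

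Other values moved with the label. In the Pdgfra library 13 of 15 immediate early genes were at least 2-fold higher in labelled cells, where 8.43% of features were. Their median log2 difference was 1.34 beside 0.22 over all features. In the Lmx1b library 0 of 15 were 2-fold higher, where 5.13% of features were, so that 0 of 15 is near the share over all features. An Xist UMI, a mark of female cells, was present in 13 of 66 labelled against 17 of 888 unlabelled cells of the Lmx1b library, and in 0 of 481 labelled (exact 95% limit 0.764%) against 7 of 71 unlabelled cells of the Pdgfra library. Median depths were 24172 and 25930 UMIs in the Lmx1b library and 25773 and 19861 UMIs in the Pdgfra library. The part of these in the label differences was not tested. With every cell that had an Xist UMI left out, the counts of genes past 2-fold were unchanged, at 1 for the Lmx1b and 2 for the Pdgfra library.

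Inside single clusters of the Lmx1b library the label differences were not those of the whole. In Cyp2f2/Sfrp2, with 28 labelled and 13 unlabelled cells, 3 of the 10 genes were 2-fold higher in labelled cells, where 9.61% of features were. Wisp2 was 59.7 against 9.99 CPM, Ctgf 5.20-fold its unlabelled level, and Tnn 431 against 203 CPM. In Mest/Nell2, with 16 and 99 cells, Wisp2 was 2.02 against 10.1 CPM, where 5.16% of features were 2-fold lower. In Lgr5/Eln, with 10 and 39 cells, 5 of the 10 were at most 0.5-fold, where 10.6% of features were, and Postn was 2125 against 4276 CPM. Clusters of this size leave few cells behind each value.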

How the data were processed

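Digit tips of 2 mouse lines were profiled with 10x Genomics 3' libraries, 1 library per line. The files hold UMI counts, not normalized, that the authors deposited for each gene in each barcode. Cell Ranger 4.0.0 wrote them, per the file headers, and reads were aligned to mm10 with a tdTomato sequence, per the labels' protocols. The rule by which barcodes entered the deposited matrices was not given in the sources used here. Totals were 66867027 UMIs over 5991 barcodes for the Lmx1b line and 49084751 UMIs over 5032 barcodes for the Pdgfra line.

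Barcodes under 500 genes or over 10% mitochondrial UMIs were left out. Doublets were scored with Scrublet and 49 and 65 cells removed. Cells were clustered in scanpy 1.11.5 (2000 variable genes, 30 components, 15 neighbours, Leiden resolution 1) without the 10 genes, named from 26 marker lists, and mesenchymal cells clustered again (20 components, resolution 0.6). The 2 unnamed clusters, 65 and 98 cells, and the mesenchymal cluster set aside entered no comparison.

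UMIs were summed per group and given as CPM with exact Poisson intervals, ratios with exact conditional Poisson intervals, and shares with exact binomial (Clopper-Pearson) intervals, all at 95%. UMIs of 1 cell are not independent draws, so intervals cover counting error only. A difference was counted at 2-fold for features with a mean of the 2 sides of at least 5 CPM, and log2 differences used a pseudocount of 1 CPM. On simulated counts with 200 genes changed 4-fold, the rule called between 91.5% and 95.5% of them over the 5 comparisons. No test between groups was made.

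The members, marker lists and gene lists were chosen with earlier results of these data known, and setting a cluster aside, leaving out cells with Xist or the clusters named erythroid, and weighting clusters equally were chosen after seeing the data. Genes named are the 10 members, the 3 genes most like each, and from each list up to 5 of the highest mesenchymal level and those past 2-fold. Alternatives covered cell filters, doublets, clustering, class gate, scaling, fold, the limit for low values, the tdTomato limit and thinning depth.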

Additional observations from a re-analysis of the deposited data

Results flagged for a closer look

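For 4 of the 10 genes the fold of labelled over unlabelled mesenchymal cells lay on opposite sides of 1 in the Lmx1b and the Pdgfra library, with intervals of counting error that exclude 1. Postn was 0.777-fold in the Lmx1b library and 1.86-fold in the Pdgfra library. Tnc was 0.733-fold and 1.47-fold, and Tnn 0.711-fold and 1.67-fold. Wisp2 was 0.266-fold in the Lmx1b library and 1.78-fold in the Pdgfra library. With 1 library per line these differences were not tested. The clusters that held labelled cells differed between the lines, and for Postn, Tnc, Tnn and Wisp2 at least 1 other tdTomato limit put the Pdgfra value below 1 or the Lmx1b value above 1.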

How the results depend on the processing

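The counts of genes 2-fold higher in mesenchyme (7 in each library), of genes highest in mesenchyme (6 in each) and of genes highest in the same cluster of both libraries (7) kept within 1.5 times of these values under all alternatives run for them. The other counts were less stable. They are given without the share of all features under the same setting. They therefore show only how a count moved, not how the members stood beside other genes. The count between the libraries (1) was 2 at 1.5-fold and 0 with clusters weighted equally. The count by label in the Lmx1b library (1) was 2 at 1.5-fold, 5 with the limit at 3200 CPM of tdTomato, 0 with labelled cells taken at 1 or more tdTomato UMIs, and 0 with clusters weighted equally. The count by label in the Pdgfra library (2) was 6 at 1.5-fold, 4 with a marker gate in each cell, 1 with median-of-ratios scaling, 1 with the cluster set aside kept in, 1 with 1 or more tdTomato UMIs, and 0 at 3-fold, at 3200 CPM and with clusters weighted equally. At 800 CPM that count was again 2, but Wisp2 at -1.06 stood in for Sparc at -0.41. Called values changed sign for Wisp2 in the Lmx1b library, with a log2 difference of 0.70 at 1 or more tdTomato UMIs and 0.47 with clusters weighted equally, against -1.88, and for Sparc in the Pdgfra library, at 0.89 with 1 or more tdTomato UMIs against -1.08. The cause was not tested. Weighting clusters equally left out A2m/Mmp13 throughout, and in the label counts most other clusters as well. Without cells that had an Xist UMI, and without the haemoglobin-led clusters, no count changed. No paired analysis was possible because each line had 1 library. Leaving out a replicate was not possible for the same reason. Sizes of differences were less stable than the counts. Of 50 log2 differences, 43 moved with a marker gate in each cell, and 39 and 34 with stricter and looser cell filters. With the mean of the CPM of each cell 32 moved, and 31 with median-of-ratios scaling. With each library clustered alone 27 moved, and 14 with doublets kept. The narrow intervals of the folds do not cover such changes. Shares of cells with a UMI depend on depth, and of the 20 shares at 5000 UMIs, 17 moved beyond their interval with cells thinned to 10000 UMIs and 18 at 2500 UMIs. With 14 cells of A2m/Mmp13 and 23 of Angpt2/Fmo2 in the Pdgfra library, values there rest on few cells. Without 1 cell, Ctgf in Angpt2/Fmo2 of that library was 92.2 CPM, against 522 CPM.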
